A study of Rattus norvegicus with 2 samples.

Results

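The Rab GTPases are small GTP-binding proteins that give membranes their identity and recruit the machinery that moves, tethers and fuses vesicles. A Rab cycles between a GTP-bound form on the membrane, made by a guanine nucleotide exchange factor (GEF), and a GDP-bound form, made by a GTPase-activating protein (GAP), after which a GDP dissociation inhibitor (GDI) lifts it off through its prenylated tail. In skeletal muscle they are best known for the insulin- and contraction-driven delivery of the glucose transporter GLUT4 to the cell surface, where the Rab GAPs Tbc1d1 and Tbc1d4 hold them in check. Members were taken as the genes whose updated symbol in the array's probe annotation is Rab followed by a number and, where present, a letter. There were 48 such genes of 13337 named genes, each represented by its brightest probe, and 47 of them by their only probe. Rab effectors and regulators whose symbols merely start with Rab were left out of the family and are described after it.

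The 2 samples were skeletal muscle of male Wistar rats, 8 to 10 weeks old, with STZ-induced diabetes (STZ, streptozotocin, destroys the beta cells of the pancreas). One was labelled EA, for electroacupuncture, and the other Mock, and each was measured on 1 Illumina bead array. Both carry the same treatment text, in which the ST36 point was needled for 5 min and then stimulated for 60 min at 15 Hz and 10 mA, so what the Mock rats received is not stated. The number of rats behind a sample, the muscle and the time of sampling are not stated either. Each group has a single array (1 per group), so no difference could be tested or checked against replicates, every value below describes these 2 arrays, and stimulation and other differences between the samples cannot be told apart.

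Of 22523 probes, 32.1% were detected in EA muscle and 30.7% in Mock muscle, where detected means a detection p under 0.01. Of the muscle fibre markers, all 8 with a named probe were detected on both arrays, including the actin gene Acta1 and the creatine kinase gene Ckm. The fibre markers Myh4 and Myh2, myosin heavy chains of fast fibres, differed in opposite directions, Myh4 1.63-fold higher and Myh2 1.98-fold lower in EA muscle, and the other 6 stayed within 1.5-fold. Markers of other cell types were detected as well and differed between the arrays. For comparison, 37.8% of all named genes were detected on both arrays. Of those genes, 6.26% were higher by 1.5-fold or more in EA muscle and 3.86% were lower by as much. All 9 fibroblast and matrix markers were detected on both arrays, 7 of them higher by 1.5-fold or more in EA muscle, and their summed normalized signal was 19608 in EA muscle and 10892.5 in Mock muscle. Of 7 endothelial markers 5 were detected on both arrays, 3 of them higher by 1.5-fold or more in EA muscle and 1, Egfl7, lower (-0.30 on the log2 scale). Their list sums were 1653 and 832 in EA and Mock muscle, and Cdh5 and Tek were detected on neither. Of 10 macrophage and leukocyte markers 6 were detected on both arrays, 2 of them higher by 1.5-fold or more in EA muscle. Their list sums were 2194 in EA muscle and 1638 in Mock muscle. Ptprc and Cd163 were detected on neither array, Cd14 on the EA array only and Tyrobp on the Mock array only. The 4 erythrocyte markers detected on both arrays split in direction. The haemoglobin genes Hba-a1 and Hbb-b1 were 1.73-fold and 1.86-fold higher in EA muscle, while Ahsp and Gypc differed by -0.15 and -0.23 (log2, EA minus Mock). Sums over the list, mostly haemoglobin signal, were 24229 in EA muscle and 14859 in Mock muscle. The adipocyte, smooth muscle and nerve lists had 3, 1 and 1 genes detected on both arrays. Those higher by 1.5-fold or more in EA muscle were Cfd (1.80-fold), Tagln (2.26-fold) and Pmp22 (0.59 on the log2 scale). The other adipocyte markers detected on both, Fabp4 and Cidec, went the other way, at -0.11 and -0.44 on the log2 scale. No neutrophil marker was detected on both. Rab genes are expressed in many cell types, fewer cells of a type and less RNA per cell cannot be told apart in whole muscle, and the part of this cell mixture in the Rab values was not tested.

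Of the 48 Rab genes, 18 (37.5%) were detected on both arrays, Rab30 was detected on the EA array only, as were 3.09% of all named genes, and 29 Rabs were detected on neither. Among all named genes the share detected on both arrays was 37.8%, so the family was detected about as often as the average gene. By role, the share differed: 7 of 13 measured Rabs of early and recycling endosomes were detected on both arrays, 3 of 7 of late endosomes, lysosomes and autophagy, 3 of 13 of the endoplasmic reticulum and Golgi, 2 of 4 of GLUT4 and plasma membrane delivery, and 1 of 7 of regulated secretion. The secretory Rabs Rab3a, Rab3b, Rab3c, Rab26, Rab27a and Rab27b, known from neurons, endocrine glands and blood cells, were detected on neither array. Raising the limit to a detection p under 0.05 added Rab30, Rab6b and Rab4b, for 21 genes. The genes Rab1b, Rab6a, Rab8b, Rab20, Rab29, Rab32, Rab35, Rab37, Rab42 and Rab44 had no named probe here and were not analysed.

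**Figure D1:**
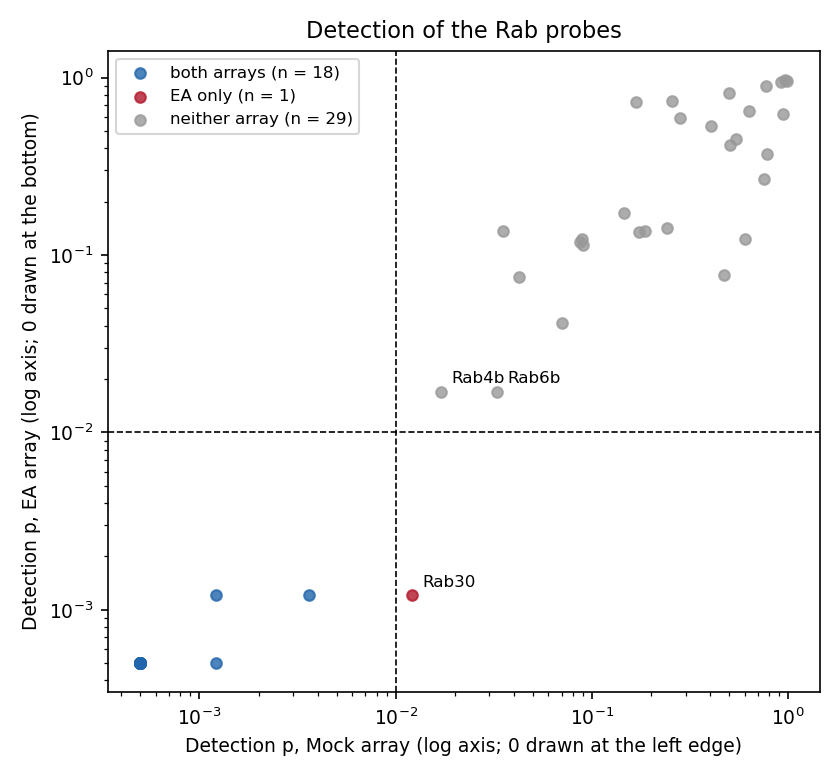
Detection p of the 48 Rab probes on the EA array (vertical log axis) and the Mock array (horizontal log axis), with the limit of 0.01 as dashed lines and values of 0 drawn at the edge. Rab30 alone lies below the limit on 1 array and above it on the other, at 0.00121 in EA muscle and 0.0121 in Mock muscle, and 29 genes lie above it on both.

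Rab30, a Rab of the Golgi apparatus, stood apart from the rest. Its probe (ILMN_1361194) read 251.5 in EA muscle and 153.0 in Mock muscle before any correction. The dimmer undetected probes, those with a high detection p, had medians of 115.0 in EA muscle and 109.9 in Mock muscle. The EA reading was thus clearly detected, with a detection p of 0.00121, while the Mock reading missed the limit narrowly at 0.0121. After background correction and normalization the log2 signal was 7.10 in EA muscle and 5.77 in Mock muscle, where the lowest detected probe lay at 5.79. Measured against that floor, Rab30 was at least 2.49-fold higher in EA muscle (1.31 on the log2 scale). Of the 412 named genes detected on the EA array only, 6.07% had a bound of at least 2-fold. The bound rests on a single probe near background and moves with the correction: without background correction it was 0.60 on the log2 scale, with the authors' deposited values 0.82, and with a larger offset 0.94. Rab30 was higher on the EA array in all 6 settings, with its own measured difference between 0.61 and 1.49. The settings rescale the same pair of readings, and detection on the EA array only already favours a higher EA value. The shared sign is therefore not separate evidence of a difference.

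Promoter windows, which run from 250 bases before to 50 bases after an annotated start, were available from RefSeq (assembly GRCr8) for 39 of the 48 genes. The windows of Rab30, of Rab14, the highest of the Rabs detected on both arrays, and of those with the lowest differences, Rab18, Rab11a and Rab7a, are shown so that the ends of the range can be compared, with the letters TGACG, the cAMP response element half-site, in capitals on either strand (CGTCA on the strand shown). Rab30 has 2 annotated starts, and its first window holds no such letters, nor does the window of Rab14. The Rab14 window has 32.3% GC, against a Rab median of 63.3%, and holds what reads as a translation start (gccaccatgg). It may thus lie inside the gene, so its lack of TGACG says little about the Rab14 promoter.
Rab30, chr1:156215887-156216186, plus strand: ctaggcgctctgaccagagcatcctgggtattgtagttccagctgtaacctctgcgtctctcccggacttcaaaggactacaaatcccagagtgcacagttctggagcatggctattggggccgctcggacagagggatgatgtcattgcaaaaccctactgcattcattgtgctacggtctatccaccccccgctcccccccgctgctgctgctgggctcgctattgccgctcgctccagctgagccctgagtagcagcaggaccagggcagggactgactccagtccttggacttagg
Rab30, chr1:156288711-156289010, plus strand: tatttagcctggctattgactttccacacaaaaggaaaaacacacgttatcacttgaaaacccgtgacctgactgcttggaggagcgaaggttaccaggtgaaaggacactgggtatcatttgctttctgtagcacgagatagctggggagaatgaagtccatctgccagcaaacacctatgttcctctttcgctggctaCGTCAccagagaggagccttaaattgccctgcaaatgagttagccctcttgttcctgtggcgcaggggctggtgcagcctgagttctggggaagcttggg
Rab14, chr3:38911635-38911934, minus strand: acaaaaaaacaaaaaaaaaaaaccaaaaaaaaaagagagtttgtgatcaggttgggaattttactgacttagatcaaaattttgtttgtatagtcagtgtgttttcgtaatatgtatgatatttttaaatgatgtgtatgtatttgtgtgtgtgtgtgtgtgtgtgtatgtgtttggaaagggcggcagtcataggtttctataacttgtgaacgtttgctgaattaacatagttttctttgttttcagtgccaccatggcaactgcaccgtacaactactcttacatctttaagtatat
Rab18, chr17:59639014-59639313, plus strand: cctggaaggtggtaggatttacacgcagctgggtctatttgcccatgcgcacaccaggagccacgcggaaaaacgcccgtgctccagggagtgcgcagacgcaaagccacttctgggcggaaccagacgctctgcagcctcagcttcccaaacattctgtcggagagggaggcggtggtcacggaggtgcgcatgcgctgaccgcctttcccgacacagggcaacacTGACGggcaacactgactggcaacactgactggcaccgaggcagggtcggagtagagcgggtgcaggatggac
Rab11a, chr8:74141635-74141934, minus strand: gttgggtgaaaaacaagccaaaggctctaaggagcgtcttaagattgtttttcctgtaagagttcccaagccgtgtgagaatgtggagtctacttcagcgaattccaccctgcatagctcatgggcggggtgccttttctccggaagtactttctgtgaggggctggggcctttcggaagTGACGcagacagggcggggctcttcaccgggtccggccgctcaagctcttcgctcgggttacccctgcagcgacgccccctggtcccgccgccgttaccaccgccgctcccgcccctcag
Rab7a, chr4:122064136-122064435, minus strand: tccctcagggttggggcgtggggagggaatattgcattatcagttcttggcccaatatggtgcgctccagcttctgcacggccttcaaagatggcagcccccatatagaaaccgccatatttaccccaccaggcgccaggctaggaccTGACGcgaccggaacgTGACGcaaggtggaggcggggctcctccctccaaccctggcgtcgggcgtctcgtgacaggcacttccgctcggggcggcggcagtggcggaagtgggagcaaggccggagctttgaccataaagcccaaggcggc

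The letters TGACG were found in windows of 7 of the 17 detected Rab genes with a window, namely Rab30, Rab1a, Rab28, Rab21, Rab7a, Rab11a and Rab18. Rab18, Rab11a and Rab7a, with the lowest differences, held them, while of the Rabs with the highest, Rab1a held them and Rab14 and Rab5a did not. The window of Rab14 may not be its promoter. This is a description of genes picked after their values were seen, with no test. The letters are common, being held by 23.5% of the windows of protein-coding genes and 35.0% of the 40 Rab windows. The heat shock element core GAANNTTC was in no window of a detected Rab gene (7.97% of protein-coding windows), and GCGNGGGCG, the Egr site, was in that of Rab3d alone among them (6.47%). The GC box GGGCGG was in most but not all Rab windows, 80.0% against 41.8% of protein-coding windows, and the Rab14 window is counted among them. The letters TATAAA were in no Rab window, against 13.0% of protein-coding windows. The median GC content was 63.3% in Rab windows and 55.0% in protein-coding windows. Both strands were searched, GGGCGG and GCGNGGGCG can overlap, and a match is only a match of letters.

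No Rab gene detected on both arrays reached 1.5-fold in either direction. Across the 5047 named genes with detection on both, 6.26% were higher by 1.5-fold or more in EA muscle and 3.86% were lower by as much, 10.1% in all. At that share 1.82 of 18 genes would pass, so a count of 0 lies close to the background. The median Rab difference was -0.08 (log2, EA minus Mock), next to -0.06 for all genes, with 7 Rabs above 0 and 11 below, where 41.2% of all genes lay above 0. The interquartile range of the Rab differences ran from -0.21 to 0.13, and that of all genes from -0.24 to 0.14. At 2-fold none of the 18 passed, where 2.54% of all genes did.

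Pairs of probes for the same gene give the only measure of technical scatter. Over 60 such pairs the SD of a single probe's log2 difference was 0.25, which gives a 95% half-width of 0.48 for a single probe if the scatter is normal, and this leaves out the variation between animals. Rab14 alone among the 18 lay outside that width, and 15.6% of all genes did.

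**Figure D2:**
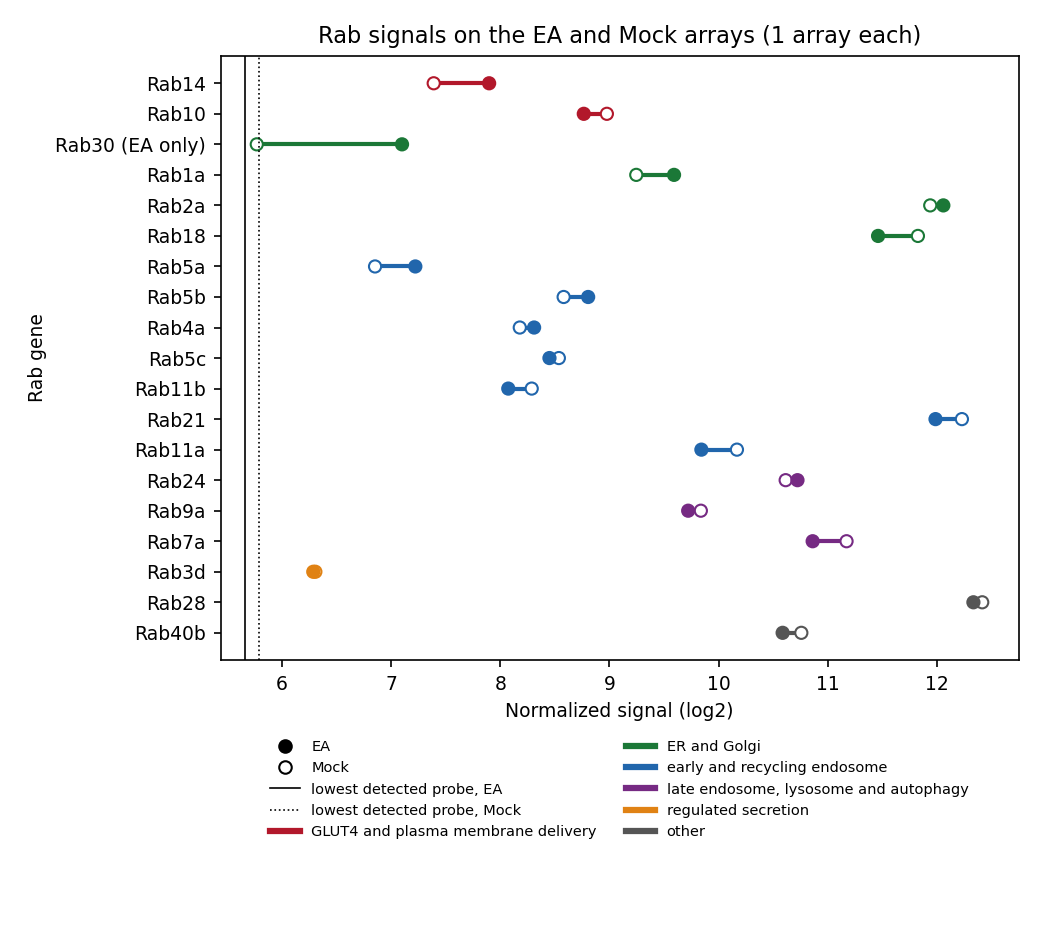
Normalized log2 signal of the 18 Rab genes detected on both arrays and of Rab30, on the EA array (filled) and the Mock array (open), coloured by role, with vertical lines at the lowest detected probe of each array. Rab30 on the Mock array (5.77) sits at that line, and the other pairs of points lie close together; levels of different probes are not comparable.

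Among the Rabs of GLUT4 and plasma membrane delivery, Rab14, which sorts cargo between the Golgi apparatus, endosomes and the cell surface and takes part in GLUT4 sorting in rodent cells, was the highest of the 18. Its probe read 349.9 in EA muscle and 262.2 in Mock muscle, with log2 signals of 7.90 and 7.39 after normalization. The difference of 0.51, or 1.42-fold, shrank to 0.33 with the authors' deposited values (549.5 in EA muscle and 437.8 in Mock muscle) and to 0.33 without background correction. Rab10, which carries GLUT4 vesicles to the surface in mouse adipocytes and is a substrate of Tbc1d4, lay the other way. It read 554.5 in EA muscle and 590.7 in Mock muscle, and its log2 difference of -0.21 is within the scatter of single probes. Rab8a and Rab13, the Rabs tied to GLUT4 delivery in rat muscle cell cultures, were not detected on either array. Rab8a read 100.1 in EA muscle and 99.1 in Mock muscle, readings not above background, with detection p of 0.95 and 0.92. Rab13 read 143.4 in EA muscle and 142.0 in Mock muscle, with detection p of 0.075 and 0.042. Rab13 thus missed the detection limit on both arrays, but less widely than Rab8a, so a low level of Rab13 is not excluded.

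The Rabs of the endoplasmic reticulum and Golgi split in direction. Rab1a, which directs transport from the endoplasmic reticulum to the Golgi apparatus, read 885.9 in EA muscle and 698.2 in Mock muscle and differed by 0.35. Rab2a, which acts in traffic around the Golgi apparatus, read 4342 in EA muscle and 4030 in Mock muscle and differed by 0.12. Rab18, a Rab of the endoplasmic reticulum and of lipid droplets, was the lowest of the 18, at 2942 in EA muscle and 3754 in Mock muscle, a difference of -0.37. All 3 lay within the scatter of single probes. RefSeq annotates 6 pseudogenes of Rab1a and 1 of Rab18, and whether these probes also bind such copies is not known here.

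In early endosomes, the close paralogs Rab5a, Rab5b and Rab5c drive the fusion of incoming vesicles. Rab5a read 263.0 in EA muscle and 209.9 in Mock muscle and differed by 0.37. Rab5b read 564.2 in EA muscle and 472.0 in Mock muscle and differed by 0.22, while Rab5c read 468.2 and 460.3 in EA and Mock muscle and differed by -0.09 once normalized. The first pair was thus higher on the EA array and the third paralog was nearly level. The differences of Rab5a and Rab5b lay within the scatter of single probes, and that of Rab5a was 0.21 without background correction. Rab4a, which returns receptors rapidly from early endosomes to the surface, read 434.4 in EA muscle and 384.0 in Mock muscle and differed by 0.13. Rab21, which moves integrins through early endosomes, read 4149 in EA muscle and 4963 in Mock muscle and differed by -0.24.

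The Rabs of the slow recycling endosome were both lower on the EA array. Rab11a read 1032 in EA muscle and 1252 in Mock muscle, a difference of -0.33. Rab11b, its near copy, read 383.5 in EA muscle and 403.6 in Mock muscle, a difference of -0.21. Both were below 0 in all 6 settings, as were 48.2% of all genes, and both lay within the scatter of single probes. The settings rescale the same readings, so the shared sign is not separate evidence.

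Of the late pathway, Rab7a, which governs the fusion of late endosomes and autophagosomes with lysosomes, was lower on the EA array. It read 1974 in EA muscle and 2409 in Mock muscle and differed by -0.31. Rab9a, which returns mannose 6-phosphate receptors from late endosomes to the Golgi apparatus, read 962.5 in EA muscle and 1010 in Mock muscle and differed by -0.12. Rab24, linked to autophagy, read 1787 in EA muscle and 1667 in Mock muscle and differed by 0.11. All 3 differences were smaller than the half-width of 0.48 for a single probe.

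The remaining detected members were near level. Rab3d, a Rab of secretory granules in gland cells, read 190.5 in EA muscle and 175.7 in Mock muscle, close to background, and differed by -0.02 after normalization. Rab28, which acts at cilia in photoreceptors, read 5223 in EA muscle and 5589 in Mock muscle and differed by -0.08. Rab40b, which joins a ubiquitin ligase through its SOCS box, read 1654 in EA muscle and 1843 in Mock muscle and differed by -0.17. On the uncorrected scale 9 of the 18 Rabs read higher and 9 lower on the EA array, where 55.8% of all genes read higher.

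**Figure D3:**
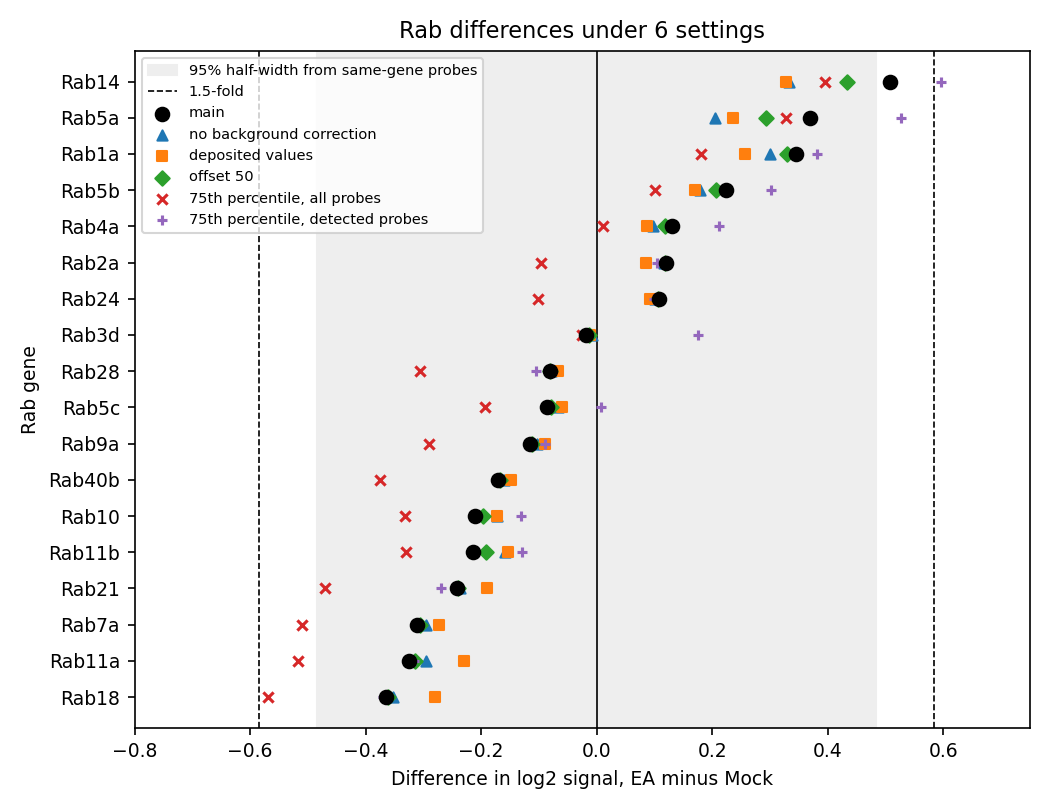
Difference in log2 signal (EA minus Mock, horizontal) for the 18 Rab genes detected on both arrays under 6 settings of background correction and normalization. The grey band is the 95% half-width of 0.48 for a single probe and the dashed lines are 1.5-fold; Rab14 reaches 1.5-fold under 1 setting only, at 0.60.

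How the arrays are scaled shifts all genes together and decides the sign of the Rabs near 0. Scaled to the 75th percentile of all probes, the median of all genes was -0.19 and the Rab median -0.24, and scaled to that of the probes detected on both arrays they were 0.01 and -0.04. The Rab median minus that of all genes stayed between -0.05 and -0.02 in all 6 settings. Rab14, Rab5a, Rab1a, Rab5b and Rab4a were above 0 in all 6 settings, 9 genes were below 0 in all 6, and Rab24, Rab2a, Rab3d and Rab5c changed sign. Of all genes, 26.8% were above 0 in all 6 settings, 48.2% were below 0 in all 6 and 24.9% changed sign, so the counts of 5, 9 and 4 among 18 Rabs lie near the background. Rab14 was the highest and Rab18 the lowest of the 18 in all 6 settings, with Rab18 at most -0.28 and at least -0.57, where -0.57 was reached under the scaling that puts the median gene at -0.19.

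The genes that load, switch and read the Rabs were described from 4 lists, chosen with earlier results of these arrays known. Of 121 listed genes with a named probe, 63 were detected on both arrays. Of these 1 was higher by 1.5-fold or more in EA muscle and 2 lower by 1.5-fold or more, against 6.26% and 3.86% of all genes. Their median difference was -0.12, with 20 genes above 0, 42 below and Vps16 at 0 after normalization, where all genes had a median of -0.06 and 41.2% lay above 0. Of the other 58 genes, 4 were detected on the EA array only and 2 on the Mock array only, and none of these had a bound of 1.5-fold.

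The 10 detected genes of prenylation and GDP dissociation had a median of -0.14 and none passed 1.5-fold. All genes had a median of -0.06 and 10.1% passed in either direction, so a count of 0 lies near the background. Rabggta and Rabggtb, the subunits of the enzyme that prenylates Rabs, differed by -0.42 and 0.11. Gdi2, a GDP dissociation inhibitor, read 6027 in EA muscle and 6468 in Mock muscle and differed by -0.12. The values of this list lie within the scatter of single probes.

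Of the 16 detected GEF genes, 12 lay below 0, the median was -0.12, and 1 was lower by 1.5-fold or more. Among all genes 58.5% lay below 0, the median was -0.06 and 3.86% were lower by as much. That gene was Trappc3, a core subunit of the TRAPP complex that activates Rab1, which read 338.5 in EA muscle and 468.3 in Mock muscle and was 1.68-fold lower on the EA array. Rabgef1, an exchange factor of Rab5, read 464.2 in EA muscle and 581.6 in Mock muscle and differed by -0.50. Rab5a and Rab5b lay on the opposite side at 0.37 and 0.22 and Rab5c on the same side at -0.09, each within the scatter of single probes. Rab3ip, an exchange factor of Rab8, was the highest of this list at 0.24. Without background correction Trappc3 differed by -0.55 and with the authors' deposited values by -0.52, so it then falls short of 1.5-fold.

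Of the 8 detected GAP genes none passed 1.5-fold, and the median was -0.10. Over all genes 10.1% passed in either direction and the median was -0.06, so a count of 0 lies near the background. Tbc1d7, which is also a subunit of the TSC complex that restrains mTORC1, was the highest at 0.55, and Tbc1d19 the lowest at -0.47. Tbc1d1 and Tbc1d4, the GAPs of GLUT4 traffic, had no named probe here and were not analysed.

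Of the 29 detected effector genes, 1 was higher by 1.5-fold or more in EA muscle and 1 lower by 1.5-fold or more, and the median was -0.09. Among all genes 6.26% were higher and 3.86% lower by as much, with a median of -0.06, so these counts lie near the background. Plin2, which coats lipid droplets and was listed for its place on the organelle of Rab18 rather than as a direct Rab ligand, read 413.4 in EA muscle and 241.5 in Mock muscle and was 2.04-fold higher on the EA array. Zfyve27 (protrudin), which binds Rab11 in its GDP-bound form, read 200.1 in EA muscle and 232.0 in Mock muscle and was 1.58-fold lower. Plin2 stayed above 1.5-fold in all 6 settings, with a lowest log2 difference of 0.67. Zfyve27 lay near background and differed by -0.34 without background correction.

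**Figure D4:**
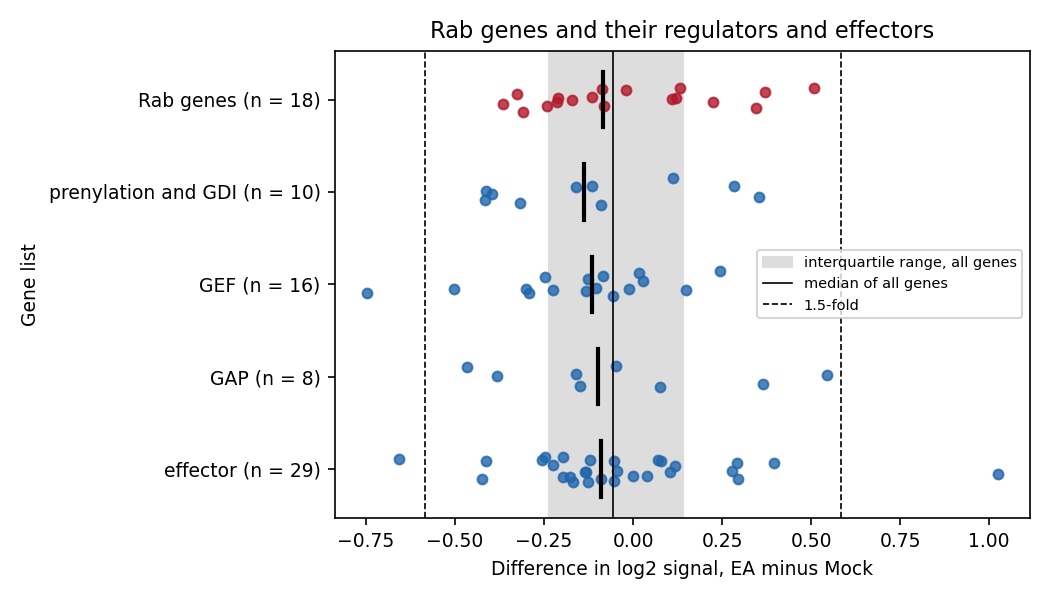
Difference in log2 signal (EA minus Mock) for genes detected on both arrays, one point per gene, for the Rab genes and the 4 lists of regulators and effectors, with short bars at list medians. Grey marks the interquartile range of all genes (-0.24 to 0.14), and only Plin2 (1.03), Zfyve27 (-0.66) and Trappc3 (-0.75) lie past the dashed 1.5-fold lines.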

How the data were processed

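RNA of rat skeletal muscle was measured on 1 Illumina array for EA and 1 for Mock. The deposited non-normalized table gives, per the file headers, a linear intensity and a detection p-value for every probe. The deposited series table holds intensity values normalized by the authors with a method not given in the sources used here, and served as an alternative. Background was corrected with limma's nec from the detection p-values (offset 16), then quantile normalization and log2 followed (R 4.3.3, limma 3.58.1, Python 3.11.15, pandas 2.3.3, numpy 2.4.6, matplotlib 3.10.9). The steps were tested on simulated data. Symbols came from the platform annotation, updated by gene identifier, then by accession, against RefSeq GRCr8: 13752 probes matched by identifier, 5 by accession, 36 kept the old symbol and 8730 had none. A gene detected on 1 array got a bound: its signal there was divided by its signal on the other array or by that array's lowest detected probe, whichever was larger. Protein sequences were not used here. The Rab family, lists and motifs were chosen with earlier results of these data known. Named genes were every Rab detected on an array, every listed regulator or effector past 1.5-fold (at most 8 per list), and others chosen after their values were seen. Alternatives were no background correction, scaling to the 75th percentile, the deposited values, offset 50, a detection p of 0.05, the mean of a gene's probes and 2-fold. Arrays give no counts, so their number limits the precision.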

Additional observations from a re-analysis of the deposited data

How the results depend on the processing

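The count of 0 Rab genes lower by 1.5-fold or more held in all alternatives run. The count higher by 1.5-fold or more was 1 (Rab14, at 0.60) with the arrays scaled to the 75th percentile of detected probes, a setting chosen after seeing the data, and 1 (Rab30) at a detection p of 0.05, which also made the count at 2-fold 1. The share of all genes higher by 1.5-fold or more and lower was 6.26% and 3.86% as reported, 3.15% and 0.872% for the authors' deposited values, 4.66% and 2.02% with an offset of 50, 3.15% and 0.892% if the background was left uncorrected, 4.93% and 7.59% scaled to the 75th percentile of all probes, and 8.64% and 2.14% scaled to that of detected probes. Of the regulators and effectors, 3 passed 1.5-fold as reported (1 higher, 2 lower), against 1 without background correction, 1 with the deposited values, 5 scaled to the 75th percentile of all probes (1 higher, 4 lower) and 1 at 2-fold; scaled to detected probes the split was 3 higher and 1 lower. The causes were not tested. The differences of the 18 Rab genes moved by less than the probe scatter of 0.25 under every setting run, while the bound of Rab30 moved further under 3. No paired analysis was possible because each group has 1 array. Signal near background limits Rab30 and Rab3d most.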
